A study of Mus musculus with 2 samples.

Results

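The genes described here encode enzymes and membrane proteins of the lysosome, and were taken from a list of 39 symbols. A gene was included when a probe set named it alone, by its platform symbol or by the symbol updated through its gene identifier. By that rule 38 of the 18193 named genes were found, and for the remaining symbol, Cd63, no probe set was used here. They comprised 10 cathepsins, 10 glycosidases, 2 other proteases, 2 sulfatases, 5 hydrolases of lipids and phosphate esters, 6 membrane proteins and 3 soluble proteins that are not enzymes. All 38 lay above the array's floor on at least 1 array and 37 on both, so none was lost to the filter on low signals.

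Total RNA of mouse kidney was hybridised to 1 Affymetrix array per group. The control carried normal alleles at the inv locus and the transgene inv-deltaC::GFP, labelled +/+,inv-deltaC::GFP. The cystic sample was homozygous for the inv mutation and carried the same transgene, labelled inv/inv, inv-deltaC::GFP. The transgene encodes inversin without its C-terminus, and both groups had it, so the comparison holds no kidney without a transgene. Mice were 4 weeks old according to the series text, and the cystic label adds 28 days and female sex, while the control label gives neither. Neither the promoter of the transgene nor the number of animals behind each RNA sample is given in the sources used here. The inv mouse is a model of nephronophthisis type 2, a cystic kidney disease.

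Lysosomes are acidic organelles in which proteins, glycans and lipids are broken down by hydrolases that work at low pH. Most soluble hydrolases reach the lysosome with a mannose 6-phosphate tag, and the membrane is covered by heavily glycosylated proteins such as those of Lamp1 and Lamp2. In the kidney, proximal tubule cells hold many lysosomes, which degrade filtered proteins taken up from the urine, and macrophages are rich in them too. Many lysosomal genes carry a binding site for the transcription factors TFEB and TFE3 in their promoters.

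The values are MAS5 signals on a linear scale, and their 2% trimmed means were 178 (control) and 181 (cystic). The floor of an array was the median of its signals, 55.4 and 61.9, and a lower signal was raised to it. Ratios are cystic over control, or log2 cystic minus control, of the brightest probe set of a gene. A test cannot be made with 1 array per group, and the verbs rose and fell mean only that a gene passed a fixed 2-fold limit. The one repeat measure was technical: over 4694 genes, the log2 ratios of probe sets for one gene varied with a pooled SD of 0.29, so 2 SD came to 0.59. Markers of the tissue were detected on both arrays. Slc34a1, a phosphate transporter of the proximal tubule, had signals of 8397 and 5093, Umod, of the thick limb, 8713 and 8160, and Aqp2, of the collecting duct, 1358 and 1661.

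Among the lysosomal genes, 4 rose at least 2-fold in the cystic kidney and 1 fell. The 4 were the cathepsins Ctss, Ctsc and Ctsd and the glycosidase Gusb, and the 1 was the cathepsin Ctsf. The share that rose was 10.5% of the 38, beside 7.06% of the 12014 measured genes, and the share that fell was 2.63% beside 3.78%. The median log2 ratio of the 38 was -0.0039, beside 0.09 for all measured genes, and 19 of the 38 (50%) lay above 0, beside 57.8%. Both shares and the median were near those of the whole array. By more than 2 SD between probe sets, 6 were higher (16.3% of all genes were) and 5 were lower (10.8% of all genes were). The 6 were the 4 that rose with Scarb2 and Ctsk, and the 5 were Ctsf, Neu1, Glb1, Arsb and Idua. The other 27 lay within 2 SD of 0.

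**Figure D1:**
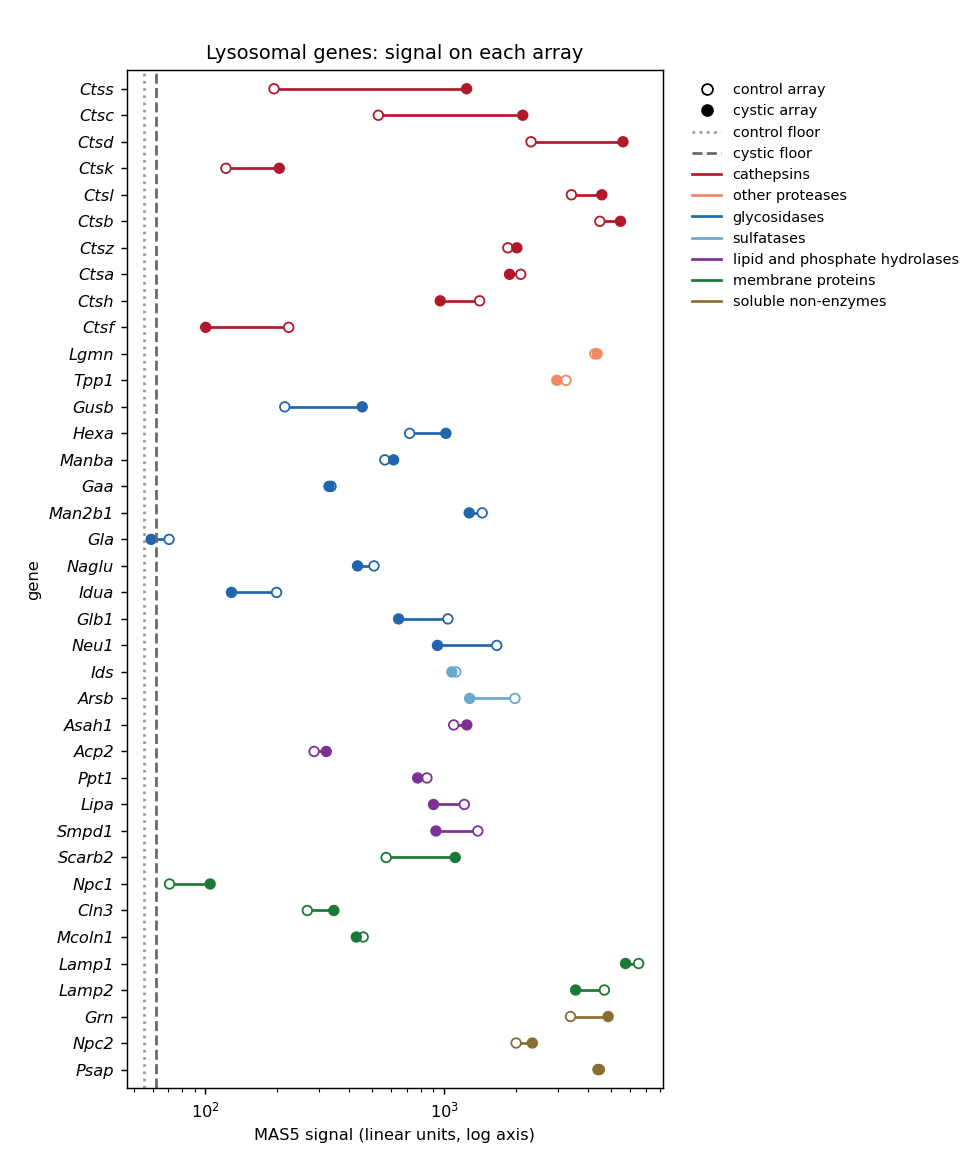
MAS5 signal of the brightest probe set of 38 lysosomal genes (horizontal log axis) on the control array (open points) and the cystic array (filled points), coloured by group, with the floors of 55.4 and 61.9 as vertical lines. The longest lines to the right are those of Ctss and Ctsc, and the longest to the left is that of Ctsf.

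Cathepsins are the main proteases of the lysosome, and they showed both the highest and the lowest ratios among the 38 genes. Of the 10 genes, 3 rose (30%, beside 7.06% of all measured genes), 1 fell (10%, beside 3.78%) and 6 stayed under 2-fold. Their median log2 ratio was 0.36, beside 0.09 for all measured genes, with a range from -1.16 to 2.68. The 28 other genes had a median of -0.07 and a range from -0.83 to 1.08. The difference between these groups was not tested, since each ratio comes from the same pair of arrays.

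Ctss encodes cathepsin S, a cysteine protease of antigen-presenting cells that trims the invariant chain of MHC class II. Its signal went from 194 (control) to 1242 (cystic), a 6.41-fold rise, and it ranked 45 from the top among the 12014 measured genes. It was read by 1 probe set. Ctsc encodes cathepsin C, which activates serine proteases of leukocyte granules, and had signals of 530 and 2134, a 4.03-fold rise. A second, dim Ctsc probe set went from 20.4 to 71.8, which is at least 1.30-fold against the floor and points the same way. The remaining Ctsc probe set was under the floor on both arrays. Ctsd encodes cathepsin D, the aspartic protease found in lysosomes of nearly all cells. Its single probe set had signals of 2312 and 5611, a 2.43-fold rise.

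Ctsk, whose product cathepsin K degrades collagen in osteoclasts, is the protein-coding gene next to Ctss on chromosome 3. Its signals of 122 and 204 gave a ratio of 1.67, beyond 2 SD but under 2-fold. Ctsl and Ctsb encode the broadly expressed cysteine proteases cathepsin L and cathepsin B. Ctsl had signals of 3412 and 4576, a ratio of 1.34. Ctsb had 4488 and 5477, a ratio of 1.22, within 2 SD. All 5 Ctsb probe sets were higher in the cystic kidney. Those above the floor on both arrays had log2 ratios from 0.19 to 0.83, and the 2 brightest had the lowest values. The dimmest, with signals of 17.5 and 69.0, was under the floor on the control array, so its 0.32 is a lower bound.

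Ctsz encodes cathepsin Z, a carboxypeptidase, and had signals of 1849 and 2017. Its 3 probe sets had log2 ratios of 0.13, -0.034 and -0.34, so they shared no direction. Ctsa encodes a serine carboxypeptidase that protects beta-galactosidase and neuraminidase in a complex. It had signals of 2093 and 1879, a log2 ratio of -0.16, and -0.81 at a second, dimmer probe set. Ctsh, an aminopeptidase, went from 1408 to 963, with log2 ratios of -0.55 and -0.43 at its 2 probe sets. Ctsf, a cysteine protease with a long propeptide, fell from 223 to 100.2, a log2 ratio of -1.16. Its second probe set was under the floor on both arrays. The lower cathepsins were thus Ctsf past 2-fold, with Ctsh and Ctsa under it.

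**Figure D2:**
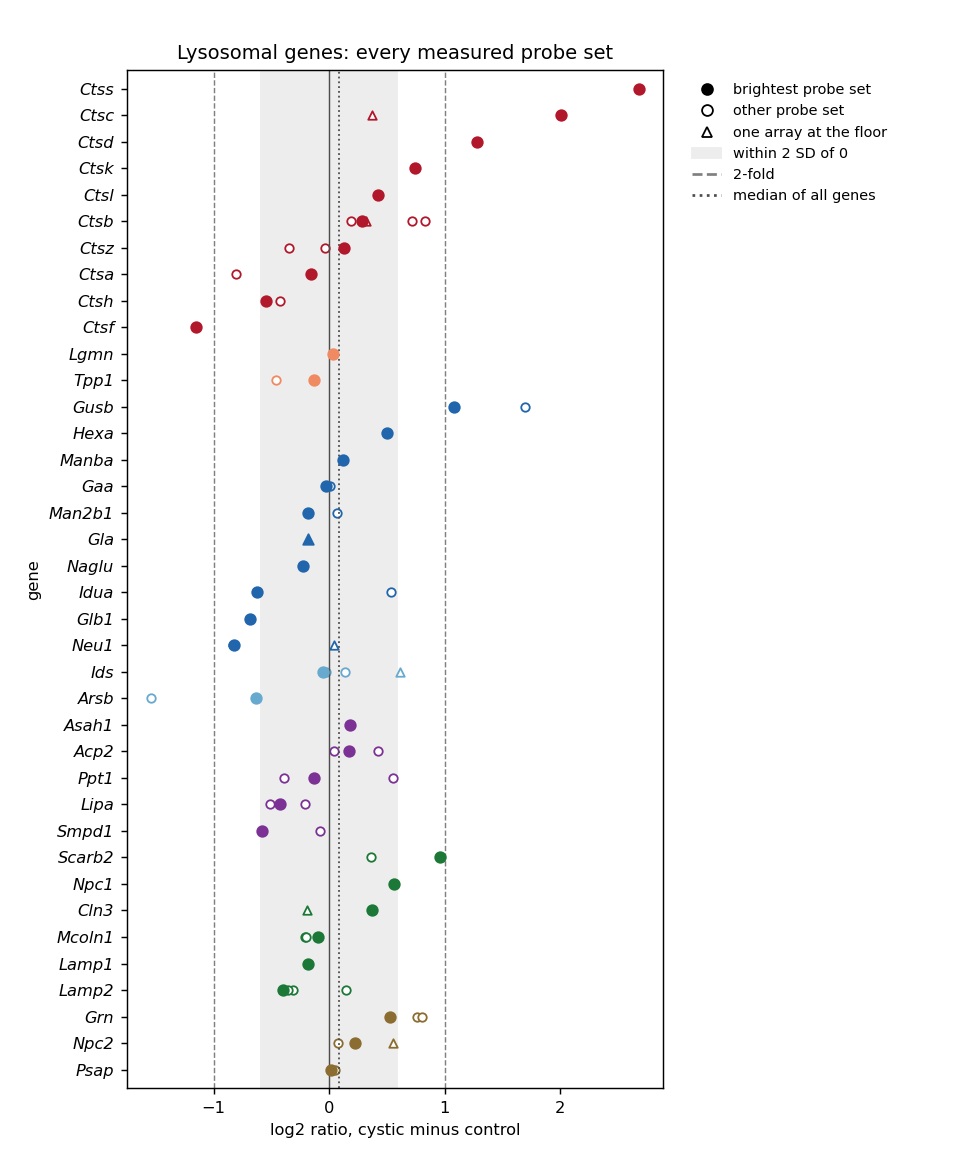
Log2 ratio, cystic minus control, of every measured probe set of the lysosomal genes, with the brightest filled, the others open and those with 1 array at the floor as triangles. The grey band is 2 SD between probe sets (0.59) on either side of 0, and Ctss (2.68), Ctsc (2.01), Ctsd (1.28), Gusb (1.08) and Ctsf (-1.16) lie past the dashed 2-fold lines at their brightest probe sets.

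Promoters of these genes were searched for CACGTG, the core of the site that TFEB and TFE3 bind, and for TCACGTG, a longer form that contains it, on both strands. The windows run from 250 bases before to 50 after the start of the gene, from RefSeq on the GRCm38.p6 build. A window was used for 35 of the 39 listed genes. CACGTG was found for 12 of the 35 (34.3%), beside 8.09% of the 27025 genes with a window, and TCACGTG for 10 (28.6%), beside 4.29%. Counted by window, 30.8% of the 39 windows of lysosomal genes held CACGTG, beside 7.15% of all 32851. The motif was chosen from general knowledge of lysosomal genes, so its higher share here was anticipated and is no independent finding. A match is a description of the letters and does not show that a factor was bound. Of the 4 genes that rose, only Ctsd held CACGTG in its window, while Ctsf, which fell, held it as well. The 12 genes with the motif had a median log2 ratio of -0.13, and the 22 measured genes with a window but without the motif 0.07.

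Ctsd, Ctsf and Ctss are shown because they are a cathepsin that rose and has the motif, the cathepsin that fell and has it, and the one that rose most and lacks it in the window. The Ctsd stretch is chr7:142387900-142388077 on the minus strand, the Ctsf stretch chr19:4855066-4855111 on the plus strand and the Ctss stretch chr3:95526686-95526785 on the plus strand. The Ctss stretch is the last 100 bases before the start. Capitals mark CACGTG.
Ctsd: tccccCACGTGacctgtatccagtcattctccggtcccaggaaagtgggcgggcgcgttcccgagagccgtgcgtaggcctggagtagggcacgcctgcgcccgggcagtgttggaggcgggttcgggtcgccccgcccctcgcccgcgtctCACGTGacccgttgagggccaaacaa
Ctsf: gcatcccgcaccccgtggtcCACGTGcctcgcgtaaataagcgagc
Ctss: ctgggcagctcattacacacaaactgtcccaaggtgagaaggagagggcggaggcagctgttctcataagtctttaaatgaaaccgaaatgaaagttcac

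Glycosidases remove sugars from glycoproteins, glycolipids and glycosaminoglycans. Of 10, 1 rose (10%, beside 7.06% of all measured genes), none fell (beside 3.78%) and 7 had a log2 ratio below 0 (beside 42.1%). Their median was -0.18, beside 0.09 for all measured genes. Gusb, the beta-glucuronidase, had signals of 215 and 454, a 2.11-fold rise, and its second probe set went from 97.8 to 316.5, a log2 ratio of 1.69. The brightest probe set was under 2-fold in 3 of 9 alternatives, with 0.92 when the arrays were centred on their medians. Hexa, the alpha subunit of beta-hexosaminidase, had signals of 717 and 1017, a ratio of 1.42 from 1 probe set. Manba, a beta-mannosidase, had 564 and 614. Both Gaa probe sets, for the alpha-glucosidase that degrades glycogen, were near 0 (-0.028 and 0.010).

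The lowest ratios among the glycosidases were those of Neu1, Glb1 and Idua. Neu1, a neuraminidase, went from 1661 to 937, with log2 ratios of -0.83 at each of its 2 brighter probe sets. The dimmest Neu1 probe set, with 60.1 and 57.8, lay close to the floor on each array. Glb1, the beta-galactosidase that works in a complex with the products of Neu1 and Ctsa, went from 1037 to 645, a log2 ratio of -0.69 from 1 probe set. All 3 genes of that complex were thus lower, by less than 2-fold, with Ctsa within 2 SD of 0 at its brightest probe set and above 0 with quantile normalization (0.029). Idua, which degrades heparan and dermatan sulfate, had signals of 198.5 and 128.5, but its probe sets went opposite ways, with log2 ratios of -0.63 and 0.54. The second Idua probe set was dim, with signals of 71.0 and 103.0. Naglu, another enzyme of heparan sulfate breakdown, had 508 and 434. Man2b1, an alpha-mannosidase, had 1443 and 1273, with 0.07 at its second probe set. Gla, the alpha-galactosidase, was near the floor, with signals of 70.4 and 59.2, and could be read only as at least 1.14-fold lower.

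Of the glycosidases, 4 of 10 held CACGTG in the window, all 4 as TCACGTG, and none of the 4 passed 2-fold. Gla and Glb1 are shown as the one with a motif pair and the lower one with a single motif close to the start. They are chrX:134601174-134601252 on the minus strand and chr9:114401010-114401055 on the plus strand, with CACGTG in capitals.
Gla: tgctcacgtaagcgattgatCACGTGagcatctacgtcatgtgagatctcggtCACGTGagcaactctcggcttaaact
Glb1: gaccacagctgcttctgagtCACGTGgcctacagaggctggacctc

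The 2 sulfatases and 5 hydrolases of lipids and phosphate esters had no gene past 2-fold at the brightest probe set. Of all measured genes, 7.06% rose and 3.78% fell. Arsb, which removes sulfate from dermatan and chondroitin sulfate, went from 1979 to 1279, a log2 ratio of -0.63. Its second probe set went from 387 to 133, a log2 ratio of -1.54, so the size of the difference depended on the probe set and its direction did not. Ids, the iduronate sulfatase, had signals of 1118 and 1077, and log2 ratios of -0.05, 0.14 and -0.024 at its 3 probe sets above the floor on both arrays. Another Ids probe set, with 54.4 and 84.9, was under the floor on the control array, so its 0.62 is a lower bound. Smpd1, the acid sphingomyelinase, went from 1383 to 924, with a log2 ratio of -0.58, just within 2 SD, and -0.08 at its second probe set. Lipa, the acid lipase that frees cholesterol from its esters, went from 1214 to 902, and its 3 probe sets had log2 ratios of -0.43, -0.51 and -0.21.

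Ppt1, a thioesterase, had signals of 847 and 774, with log2 ratios of -0.13 and -0.39 at its brighter probe sets. A dim probe set had 0.56, with signals of 55.9 and 82.2, the first close to the control floor of 55.4. Asah1, the acid ceramidase, had 1096 and 1244, and Acp2, the acid phosphatase of the lysosome, 285 and 321. Their ratios were 1.13 and 1.12. The remaining proteases were Lgmn, the asparaginyl endopeptidase that cleaves cathepsins into their mature forms, and Tpp1, a tripeptidyl peptidase. Lgmn had signals of 4276 and 4377, a log2 ratio of 0.034. Tpp1 had 3237 and 2964, with log2 ratios of -0.13 and -0.46.

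Of the 19 hydrolases that are not cathepsins, 13 had a log2 ratio below 0, beside 42.1% of all measured genes, and the median was -0.13. Gusb alone among them rose (5.26%, beside 7.06%), and 0 fell (beside 3.78%). The number below 0 ranged from 10 to 15 over the alternatives, some of which read fewer genes.

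The membrane proteins had no gene past 2-fold, beside 7.06% of all measured genes that rose and 3.78% that fell. Of these proteins, 3 of 6 were above 0 (50%, beside 57.8% of all measured genes). Their median of 0.14 turned below 0 in 2 alternatives. Lamp1, an abundant glycoprotein of the lysosomal membrane, had signals of 6526 and 5753, a log2 ratio of -0.18. Lamp2, its relative that takes part in chaperone-mediated autophagy, went from 4691 to 3553 at its brightest probe set. Of its 4 probe sets, 3 had log2 ratios between -0.40 and -0.32 and 1 had 0.15. Scarb2, the receptor that carries beta-glucocerebrosidase to the lysosome, had signals of 572 and 1112, a ratio of 1.95, and a log2 ratio of 0.36 at its second probe set. It was the highest of the membrane proteins and lay just under the 2-fold limit.

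Npc1, a cholesterol exporter of the membrane, was read by 1 dim probe set with signals of 70.7 and 104.6, a ratio of 1.48. Cln3, a membrane protein mutated in a form of neuronal ceroid lipofuscinosis, had 267 and 345, while its second probe set was near the floor and pointed the other way. Mcoln1, a calcium channel of the lysosome, had 458 and 429, and its 3 probe sets had log2 ratios between -0.21 and -0.10. The 3 soluble proteins that are not enzymes were all above 0, beside 57.8% of all measured genes. Psap was the exception with median centring (-0.14) and with equal trimmed means (-0.0057). None of the 3 was past 2-fold, beside 7.06% of all measured genes that rose and 3.78% that fell. Grn, the precursor of granulins, had signals of 3382 and 4864, a ratio of 1.44, and log2 ratios of 0.52, 0.76 and 0.80 at its 3 probe sets. Npc2, which hands cholesterol to the product of Npc1, had 2002 and 2341. Psap, the precursor of the saposins that activate sphingolipid hydrolases, had 4407 and 4470, a ratio of 1.01.

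Of the 6 membrane proteins with a window used here, Cd63 included and Npc1 not, 3 held TCACGTG (Lamp1, Mcoln1 and Cln3). Lamp1 had 4 copies of CACGTG within 81 bases before the start, and Mcoln1 had 2. The Lamp1 stretch is chr8:13159080-13159160 and the Mcoln1 stretch chr8:3500428-3500499, both on the plus strand, with CACGTG in capitals. Neither gene differed by more than 2 SD.
Lamp1: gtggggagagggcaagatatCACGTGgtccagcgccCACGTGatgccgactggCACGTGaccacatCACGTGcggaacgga
Mcoln1: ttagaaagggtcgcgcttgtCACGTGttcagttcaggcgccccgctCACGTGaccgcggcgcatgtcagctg

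Probe sets of a gene repeat the measurement in the same RNA. Of 88 probe sets that named these genes, 77 were measured and 11 were under the floor on both arrays. Of the 24 genes with more than 1 measured probe set, 15 had all of them on one side of 0 after the floor was applied. In 17 the second brightest had the sign of the brightest. Neu1 is not among the 15 because its dimmest probe set (60.1 and 57.8) had 0.043 once the cystic signal was raised to the floor. The pooled SD over the lysosomal genes was 0.31, close to the 0.29 over all genes. Ctss, Ctsd and Ctsf had a single measured probe set each, so their ratios have no such repeat.

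Other genes of the lysosome, from lists of genes that are not among the 38, were read in the same way. Of 19 further hydrolases and activators (median -0.15), 1 rose and 1 fell (5.26% each, beside 7.06% and 3.78% of all measured genes). The first was Pla2g15, a lysosomal phospholipase (68.1 to 171.9), and the second Dnase2a, the acid nuclease (797 to 341). Of 19 further membrane proteins, 4 rose (21.1%) and 1 fell (5.26%), with a median of 0.11, which was -0.053 with median centring. Laptm5, a lysosomal protein of blood cells, rose 4.84-fold and Litaf 3.02-fold. Mcoln3, a channel related to Mcoln1, rose 2.33-fold, and Slc11a1, the metal transporter of macrophage phagosomes, 2.24-fold. Abca2, a lipid transporter, had the lowest log2 ratio, -1.67.

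Genes for sorting to the lysosome and for its regulation showed none past 2-fold among 18, with a median of 0.0012. Of all measured genes, 7.06% rose and 3.78% fell. M6pr and Igf2r, the mannose 6-phosphate receptors, had log2 ratios of -0.12 and -0.29. The transcription factor genes Tfeb, Tfe3, Mitf and Tfec had 0.14, 0.52, 0.43 and -0.40, and levels of transcripts do not show where these proteins were in the cell. In a list drawn up for cathepsin inhibitors and partners, 4 of 8 genes were measured and none passed 2-fold, beside the same shares. With no floor, 1 of the 8 rose and 1 fell, beside 11.5% and 9.16% of all genes. Cstb and Cst3, which encode the inhibitors cystatin B and cystatin C, had log2 ratios of 0.56 and 0.36. Kng1 had 0.21, and Spink1, whose action on cathepsins was not checked here, had -0.45.

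Markers of cell types moved beside these values. Of all measured genes, 7.06% rose and 3.78% fell, and the marker counts below stand beside these shares. Of 19 measured markers of macrophages and dendritic cells, of 20 listed, 16 rose, 0 fell and the median was 2.16. For 8 of the 19 one array was at the floor, so their ratios are bounds. The summed signal of the 20 was 2539 on the control and 12670 on the cystic array. None of the 20 had a signal of 0. Ctsw, whose use as a marker of these cells was not checked here, was under the floor on both arrays. Cd68, itself a lysosomal membrane protein, went from 52.9 to 240.0, at least 4.33-fold, and Lyz2 from 148 to 2369. Of 15 measured markers of the proximal tubule, 9 fell, 0 rose and the median was -1.04. Their summed signals were 72164 and 37805. Lrp2, the endocytic receptor that feeds proximal tubule lysosomes, went from 5731 to 2461, and Cubn, its partner, from 3440 to 1675. All 8 fibroblast markers rose, with a median of 1.70. Of the markers measured, 1 of 6 for the thick limb and distal tubule, 1 of 6 for the collecting duct, 1 of 4 for podocytes and 0 of 6 for endothelium fell, and none of these rose. The part of these cell types in the lysosomal values was not tested, and in whole kidney RNA a change in the number of cells of a type and in the RNA per cell cannot be told apart. In a list for osteoclast-like and lipid-laden macrophages none of 5 measured genes was counted past 2-fold and 4 were above 0. They were Fabp4 (0.72, and -0.015 at its second probe set), Fabp5 (0.59, and 0.92 at its second), Gpnmb (0.19) and Mmp12. Gpnmb was near the floor, with signals of 57.6 and 65.5. The Mmp12 signals of 2.6 and 68.8 give only a bound of at least 1.24-fold, so a rise past 2-fold is possible. With no floor 2 of 7 genes of this list rose, beside 11.5% of all genes. Acp5, the acid phosphatase of osteoclasts that is also in a list above, had a log2 ratio of -0.63.

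**Figure D3:**
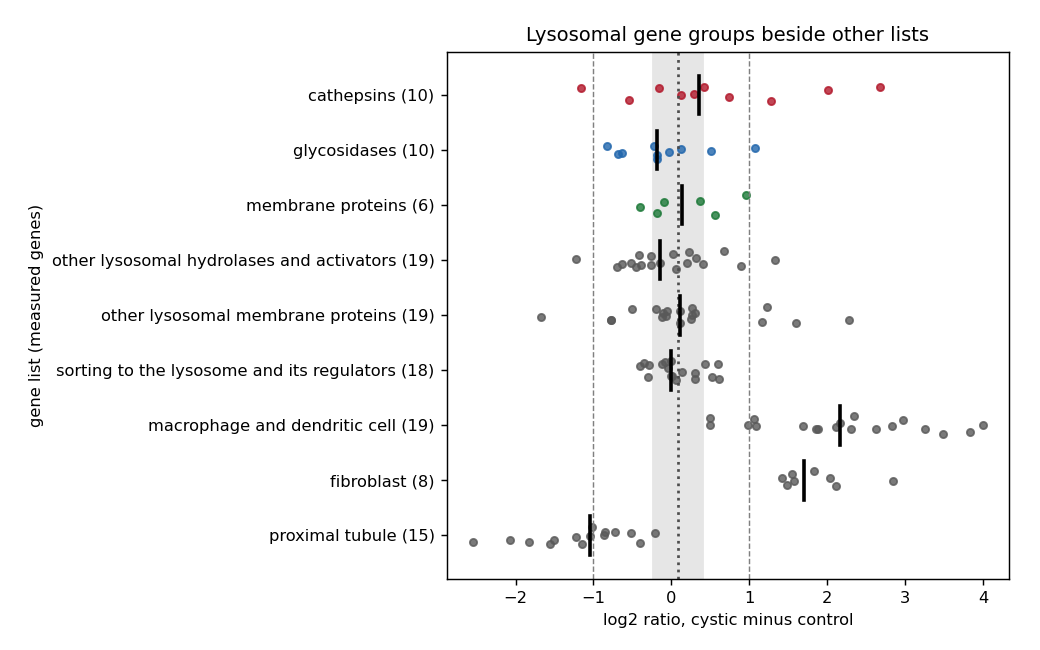
Log2 ratio, cystic minus control, of each measured gene in 9 lists, with list medians as black bars, the range between the quartiles of all measured genes (-0.24 to 0.40) as a grey band and their median of 0.09 as a dotted line. The cathepsins run from -1.16 to 2.68, while the macrophage markers lie between 0.49 and 4.00 and the proximal tubule markers between -2.55 and -0.21.

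Scaling changed the level against which ratios are read. Centring each array on its median shifted every ratio alike for genes above the floor, and moved the median of all genes from 0.09 to -0.07. Relative to the median of all genes, the cathepsins lay 0.27 above, the glycosidases 0.27 below and the membrane proteins 0.05 above. With quantile normalization these offsets were 0.49, -0.19 and 0.10. The median of the membrane proteins was below 0 after median centring (-0.023) and when a gene took the median of its probe sets (-0.047). Cathepsins stayed above and glycosidases below 0 under the 9 alternatives tried. Gene by gene, Ctss, Ctsc and Ctsf stayed past 2-fold in all 9. Ctsd did so in the 8 that could read it. Gusb passed it in 6 of 9. The sign was kept in all alternatives by 29 of the 38 genes, and the others were Ctsa, Ctsz, Ids, Lamp1, Lgmn, Man2b1, Manba, Psap and Tpp1, each within 2 SD of 0.

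**Figure D4:**
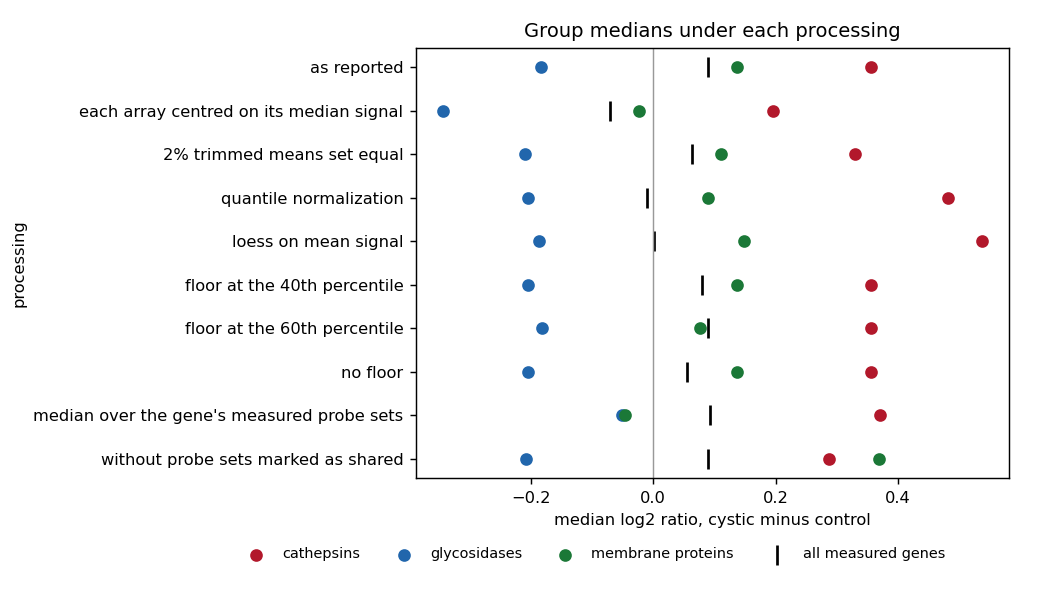
Median log2 ratio, cystic minus control, of the cathepsins, glycosidases and membrane proteins, and of all measured genes as vertical ticks, under the processing as reported and 9 alternatives. The cathepsin points lie between 0.20 and 0.54, the glycosidase points between -0.34 and -0.05, and the membrane protein points cross 0.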

How the data were processed

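Kidney RNA of 1 control and 1 cystic sample was measured on 1 array each. Per the submitters' processing notes the authors used MAS5, and each deposited value is a probe set's intensity on a linear scale. Its version and scaling target and any detection calls are not given in the sources used here. Of 45101 probe sets, 64 controls were left out. The scaling was kept because the 2% trimmed means differed by 1.83%, under a limit of 2%. Of the rest, 34945 named 1 gene, 932 several and 9160 none, by a platform annotation whose symbols were updated through RefSeq gene identifiers (34741 matched). A gene was represented by its brightest probe set (mean log2 signal after the floor). Of 18193 genes 12014 were measured, 10668 on both arrays. The number of arrays limits precision. Alternatives changed the scaling, the floor (40th or 60th percentile, or none) and the choice of probe set. Every gene of the list is named. Of other lists, at most the 3 highest and 3 lowest were to be named, and Slc11a1, the transcription factors, receptors and further markers were picked with their values known. The steps ran in Python 3.11.15 (pandas 2.3.3, statsmodels 0.14.6) and were tested on simulated data. Members and lists were chosen with earlier results of these data known.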

Additional observations from a re-analysis of the deposited data

How the results depend on the processing

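Over 9 alternatives, 35 of the 38 lysosomal genes kept their side of the 2-fold limit and 29 kept their sign. The exceptions at the limit were Gusb (0.92 to 1.39), Scarb2 (0.66 at its lowest, past 2-fold with loess) and Arsb (-1.09 to -0.49). Centred on the array medians, the medians were -0.16 for all lysosomal genes, 0.20 for cathepsins, -0.34 for glycosidases and -0.023 for membrane proteins. With quantile normalization they were 0.057 for all and 0.48 for cathepsins, and with loess 0.059 and 0.54. When a gene took the median of its probe sets, the glycosidase median was -0.051, the membrane protein median -0.047, and 2 lysosomal genes fell at least 2-fold, Arsb and Ctsf. Without probe sets marked as shared between transcripts, the membrane protein median was 0.37, with fewer genes. With no floor, 2093 of all genes rose and 1666 fell, since dim probe sets were then counted. The share of higher genes among all those past 2-fold was 65.1% as reported and 47.5% with median centring. No paired analysis was possible because each group has 1 array. The cause of the other shifts was not tested. Signals near or under the floor limit Gla, Npc1 and dimmer probe sets, among them those of Ctsb, Ctsc, Cln3, Neu1, Idua, Ppt1, Npc2, Ids and Mcoln1.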
